A study of Mus musculus with 3 samples.

Results

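Integrins and cadherins are the adhesion receptors that hold lung cells to their matrix and to one another. The genes described here were taken by symbol: every gene with a single symbol on the array that begins with Itga, Itgb, Cdh or Pcdh. The rule leaves out Itgam and genes of integrin-binding proteins. It takes 1 probe set per gene, the brightest by its mean over the arrays. This gave 34 of the 8251 genes on the array, namely 18 integrin, 14 cadherin and 2 protocadherin genes, from 51 probe sets. The rule does not take every integrin gene. The study profiled total RNA of frozen mouse lungs on Affymetrix expression arrays, and the series describes the design as a model of the lung that answers a distant primary tumour before tumour cells reach it. Of the 3 arrays, 1 held B16-bearing lung (B16 lung for short), from mice carrying a subcutaneous tumour of the B16 melanoma line on the back. Another held LLC-bearing lung (LLC lung), from mice carrying Lewis lung carcinoma in the same way, and the third control lung of normal mice. Strain, age, time since injection and the number of animals per array are not stated in the labels.

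With 1 array per group there is no replicate spread, no test and no standard error, so the differences are between single arrays and carry no statement on the conditions. All values are signals on a linear scale after 1 scaling factor per array. A signal under 23.6, the 40th percentile of all values, counts as below the floor, and differences are in log2 after values under the floor were set to it. A comparison counts a gene as measured if at least 1 of its 2 signals was above the floor, and a fold against a signal below the floor is only a minimum. Different probe sets bind with different strength, so signals of different genes are not set against each other. The arrays were close in level, with deposited medians of 41.9, 44.5 and 44.6 in the B16, LLC and control lung.

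An integrin is a pair of an alpha and a beta chain that binds matrix proteins or counter-receptors on other cells and is tied to actin inside the cell through talin, kindlins and other adaptors. Leukocytes carry beta 2 and beta 7 integrins for adhesion to endothelium and for homing, and epithelium carries chains that bind laminin in the basement membrane. Classical cadherins bind the same cadherin on the neighbouring cell in the presence of calcium and are coupled to actin through catenins: E-cadherin in epithelium, VE-cadherin in endothelium. To compare cell types, the genes were put in classes by their main known expression. There were 7 leukocyte genes, 6 epithelial, 3 endothelial, 1 platelet, 5 mesenchymal and muscle, 5 broadly expressed genes and 7 others, mainly neural cadherins.

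Itgb1, Cdh5 and Cdh1, the most widely shared integrin chain and the main cadherins of endothelium and epithelium, had nearly the same signal on every array, and the larger differences lay among dimmer genes, mostly in the B16 lung. Itgb2, the beta chain shared by leukocyte integrins, and Itga8 were at least 2-fold lower there than in the control lung, and Cdh11 and Cdh4 at least 2-fold higher. In the LLC lung no adhesion gene differed from control by 2-fold on the probe set used. Of 34 genes, 19 were measured and 15 were below the floor on every array (44.1%, against 25.5% of all genes on the array). Of the 19, 16 were above the floor on all arrays and 3, Itgae, Cdh16 and Cdh4, on some only; these 3 could differ from control in 1 direction only.

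Counted at 2-fold against control, 2 of the 19 were higher in the B16 lung, where 3.23% of 5968 measured genes were, and 2 were lower, where 4.73% were. In the LLC lung 0 were higher (3.95% of 6000 measured genes) and 0 lower (2.98%). At 1.5-fold the counts were 3 higher (9.42% of all) and 2 lower (13.7%) in the B16 lung, and 1 higher (9.32%) and 0 lower (9.07%) in the LLC lung. The median log2 difference of the measured adhesion genes was −0.01 in the B16 and 0.03 in the LLC lung; over all measured genes it was −0.01 and 0.00.

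The counts differed by brightness. Of the 9 adhesion genes with a mean signal of 100 or more (Itgal, Itgax, Itgb7, Itgb1, Itgb5, Itgav, Itga3, Cdh1 and Cdh5), 0 differed from control by 1.5-fold in either tumour-bearing lung, against 15.0% of all genes of that brightness in the B16 and 10.6% in the LLC lung. Of the 6 with a mean from 50 to 100, 3 differed by 2-fold between the B16 and control lung (Itgb2, Itga8 and Cdh11), and 12.8% of all genes in that range did. With the floor raised to the 60th percentile of all values or to a signal of 100, 0 adhesion genes were 2-fold different between the B16 and control lung. By construction a raised floor shrinks the differences of every dim gene. The share of all genes at these floors was not counted, so these counts are not a result about the adhesion genes.

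**Figure D1:**
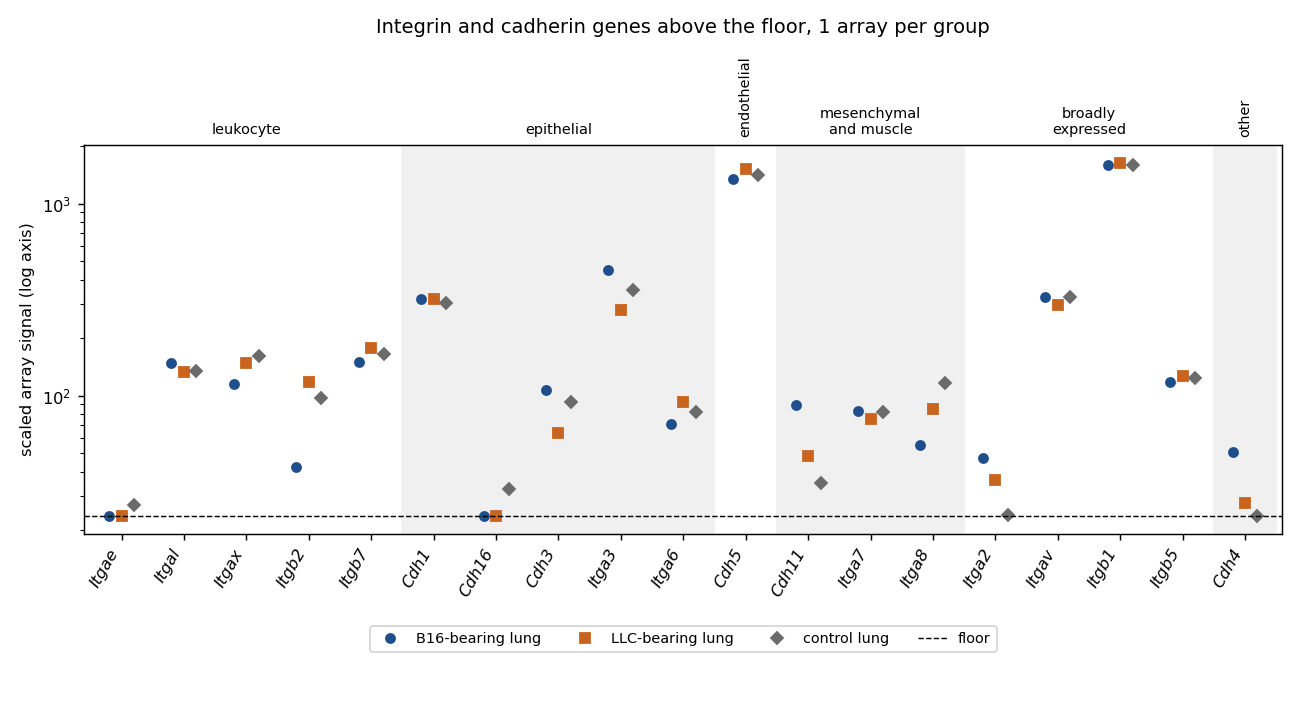
Scaled array signal (log axis) of the 19 integrin and cadherin genes above the floor on at least 1 array, by class, with 1 point per array and signals below the floor drawn on the dashed floor line at 23.6. The points of Itgb1, Cdh5 and Cdh1 nearly coincide, while Itgb2 is low on the B16 array and Cdh11 high; heights of different genes are not comparable.

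Leukocyte integrins were the first class compared. Itgb2 encodes CD18, the common beta chain that leukocytes need for firm adhesion to endothelium; its only probe set read 42.3 in the B16, 118 in the LLC and 97.6 in the control lung. The B16 lung was thus the low one, 2.31-fold below control (log2 difference −1.21) and 2.78-fold below the LLC lung (−1.48), and the LLC lung was 1.204-fold above control (0.27). Itgal, the alpha chain that pairs with Itgb2 in LFA-1, a receptor for ICAM proteins on lymphocytes and other leukocytes, read 147, 133 and 135 in the same order. It did not follow its partner, with log2 differences from control of 0.13 and −0.02. Itgax, the alpha chain CD11c of dendritic cells and alveolar macrophages, which also pairs with Itgb2, read 116, 147 and 160. Its lowest value was again in the B16 lung, 1.38-fold below control (−0.47), and the LLC lung differed by −0.12.

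The beta 7 chain and its partners gave less to compare. Itgb7, the beta chain of mucosal homing receptors on lymphocytes, read 150, 176 and 165 in the B16, LLC and control lung, with differences from control of −0.13 and 0.10. Itga4, which pairs with Itgb7 or Itgb1 and binds VCAM1, was below the floor on all arrays on its brightest probe set, at 21.2, 22.9 and 15.3. Another Itga4 probe set read 28.4 in the LLC lung, just above the floor, and 8.49 and 14.4 in the B16 and control lung. Itgae, the alpha chain CD103 of lymphocytes and dendritic cells in epithelium, read 27.0 in the control lung and less than the floor value in both tumour-bearing lungs, at least 1.14-fold lower. Itgb2l, a gene related to Itgb2, was below the floor on all arrays. Over the class, 1 of 5 measured genes was higher in the B16 lung than in control and 4 were lower, with a median of −0.19. In the LLC lung 2 were higher and 3 lower, with a median of −0.02. Itgae, above the floor in the control lung alone, could only be lower in both lungs, and its bound is the B16 median.

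General leukocyte markers were set beside these genes. All 6 (Ptprc, Cd53, Laptm5, Coro1a, Cd52 and Lcp1) were above the floor on every array, and their summed signal was 1479 in the B16, 3142 in the LLC and 1979 in the control lung. Of these, 5 were lower in the B16 than in the control lung (median −0.80) and 6 were higher in the LLC lung (median 0.73). Ptprc, which encodes CD45, read 24.98, 245 and 137 in the same order of arrays. The order of the arrays was the same as for Itgb2, and Itgal did not share it. In whole-lung RNA, fewer leukocytes and less of an mRNA per leukocyte cannot be told apart.

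Markers of single leukocyte types differed in direction. Of 9 measured macrophage and monocyte markers, 8 were lower in the B16 lung than in control (median −0.48; summed signal of the 11 listed genes 3857 against 5176) and 7 were higher in the LLC lung (0.18; 5993); Adgre1 and Marco were below the floor on all arrays. Neutrophil markers were higher in both, 8 of 8 measured in each, with medians of 0.56 and 0.82. Their summed signals were 3118, 4766 and 1586 in the B16, LLC and control lung. Mpo was below the floor in the control lung alone and so could only be higher. B cell markers were lower in both, 6 of 6 measured in each, with medians of −0.99 and −0.93. Blnk, Cd72 and Fcer2a passed the floor in the control lung alone and so could only be lower. Of the T and NK cell markers, Cd3e, Cd3d, Cd3g, Cd8a and Thy1 were below the floor on all arrays, and the 4 measured had medians of 0.20 and 0.07. In the B16 lung these 4 hold differences past 2-fold in both directions, Il2rb at 1.07 and Gzma at −1.43 from control. The part of these cell types in the Itgb2 and Itgax values was not tested.

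Epithelial genes were the second class. Cdh1, E-cadherin, the main cadherin of epithelial junctions, read 318 in the B16, 317 in the LLC and 303 in the control lung, so the tumour-bearing lungs lay within 1.05-fold of the control. Cdh3, P-cadherin, known from basal epithelial cells, read 107, 63.8 and 93.1. It was highest in the B16 lung (0.20 above control) and lowest in the LLC lung (−0.54), a 1.68-fold difference between the tumour-bearing lungs. Its second probe set, which is of a relaxed design by its name, read 88.7, 90.5 and 52.6, and so was higher than control in both lungs and showed almost no difference between them (−0.03).

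The laminin-binding chains of this class also differed from each other. Itga3, which pairs with Itgb1 to bind laminin and is abundant in alveolar epithelium, read 451, 278 and 357 in the B16, LLC and control lung. It had the order of the brighter Cdh3 probe set, with differences from control of 0.34 and −0.36 and a 1.62-fold difference between the tumour-bearing lungs. On the second Itga3 probe set, with 202, 165 and 142, the B16 lung was again the highest, but the LLC lung lay above the control (0.22). Itga6, the other laminin-binding alpha chain, found in epithelium and endothelium, read 71.5, 93.2 and 82.0, the opposite order, with differences of −0.20 and 0.18. Itgb4, its partner in hemidesmosomes, read −126, −166 and −123, far below 0 on each array, so this probe set gave no usable value. Cdh16, a cadherin known mainly from kidney tubules, read 32.5 in the control lung and less than the floor value in both tumour-bearing lungs, at least 1.38-fold lower.

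Lung epithelial markers were set beside this class, and Sftpc, Sftpb, Ager and Scgb1a1, which define alveolar and airway epithelium, were bright on every array. Of 11 measured in the B16 lung 9 were higher than control (median 0.22), and of 12 in the LLC lung 5 were higher and 7 lower (median −0.07). The summed signals were 22695, 21318 and 19424 in the B16, LLC and control lung, and the bright Sftpc and Scgb1a1 weigh most in them. In the LLC lung both were above control (0.23 and 0.20), although the median of the list was below it. Between the tumour-bearing lungs, 9 of 12 were higher in the B16 lung, with a median of 0.28. The epithelial adhesion genes had 3 of 4 higher, with a median of 0.35. That median depended on the processing. It was 0.10 with the floor at a signal of 100, 0.18 with the mean of all probe sets and 0.48 with arrays scaled by overall medians. Sftpc, the surfactant protein C of type 2 cells, read 7482, 7298 and 6206, higher in both tumour-bearing lungs. Cldn3, a claudin of epithelial tight junctions, read 338, 216 and 261, the order seen for Itga3. The part of epithelial content in the Cdh3 and Itga3 values was not tested.

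Endothelial genes came down to 1 measured gene. Cdh5, VE-cadherin, the cadherin that seals junctions between endothelial cells, read 1338 in the B16, 1517 in the LLC and 1407 in the control lung. The tumour-bearing lungs lay on either side of the control, 1.05-fold below and 1.08-fold above it, and 1.13-fold apart; with arrays scaled by overall medians the B16 lung lay above it too (0.038). Pcdh12, a protocadherin of endothelial cells, and Cdh13, the T-cadherin of endothelium and smooth muscle, were below the floor on all arrays. All 12 endothelial markers were above the floor on every array, with medians against control of 0.10 and 0.02 and summed signals of 9368, 8242 and 8047. Of these only Vwf, the von Willebrand factor, differed 2-fold from control, with 732 in the B16, 537 in the LLC and 354 in the control lung (1.05 and 0.60). Pecam1, the junction protein CD31, read 313, 184 and 304, lower in the LLC lung alone (−0.73), where Cdh5 was not lower. Platelets and endothelium share Itgb3, the beta chain of the vitronectin and fibrinogen receptors, which was below the floor on all arrays; of 4 platelet markers on the array, Pf4 and Gp1bb were below the floor on all and Gp9 read 137, 105 and 89.1.

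Set side by side, the 3 cell-type classes had differing medians against control. In the B16 lung they were −0.19 for leukocyte genes, 0.07 for epithelial genes and −0.07 for the single endothelial gene. In the LLC lung they were −0.02, −0.36 and 0.11. The leukocyte value in the B16 lung is the bound of Itgae. Itgae and, in the epithelial class, Cdh16 were above the floor in the control lung alone and could only be lower. The epithelial value in the LLC lung depended on the processing. It was 0.062 with the mean of all probe sets of a gene, and −0.15 with the floor at the 60th percentile, where Cdh16 was not measured. With 5, 5 and 1 measured genes and no replicates, no difference between the classes could be tested.

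**Figure D2:**
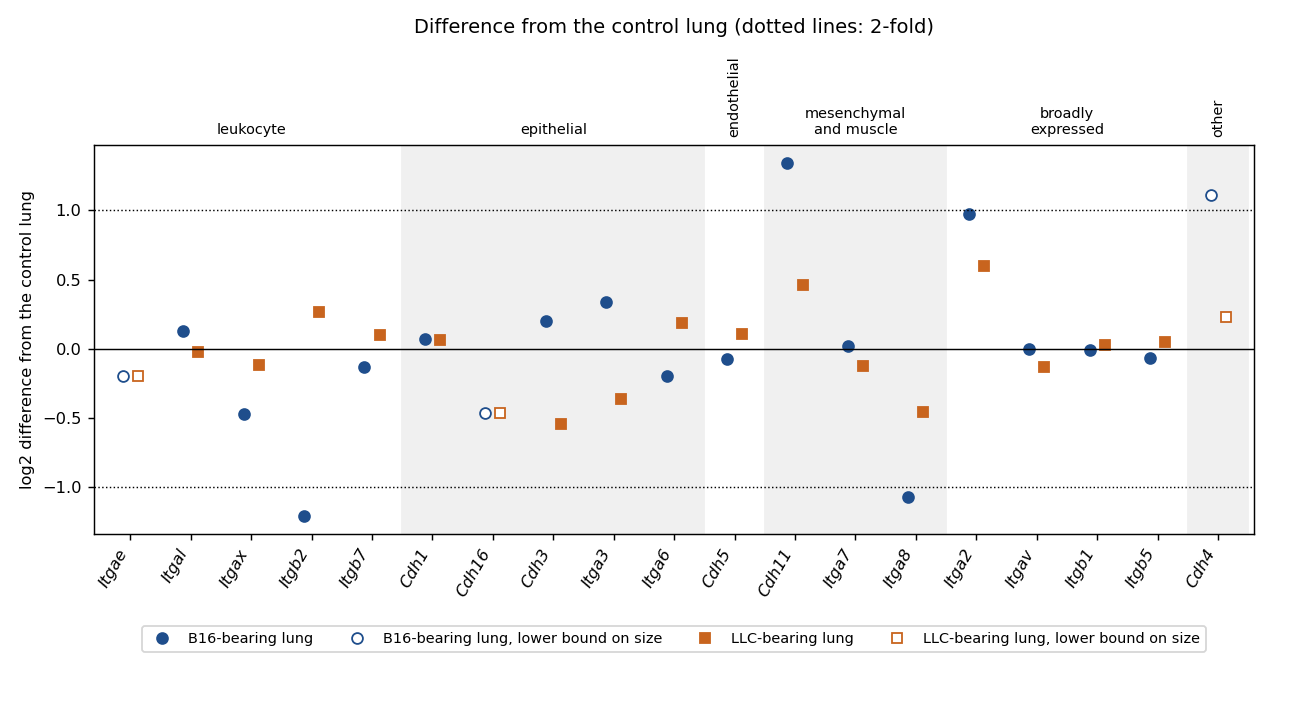
Log2 difference from the control lung for the 19 measured genes by class, in the B16 (circles) and LLC lung (squares), with open symbols for lower bounds and dotted lines at 2-fold. Cdh11 and Cdh4 lie above the upper line and Itgb2 and Itga8 below the lower line in the B16 lung, and no LLC point crosses either line; both series share the control array.

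Among mesenchymal and muscle genes, Cdh11 and Itga8 lay on opposite sides of the control. Cdh11, the cadherin of fibroblasts and osteoblasts, read 89.1 in the B16, 48.3 in the LLC and 35.1 in the control lung on its single probe set. Both tumour-bearing lungs were above the control, by 2.54-fold (1.34) and 1.37-fold (0.46). Itga8, the alpha chain of a receptor for fibronectin and nephronectin on smooth muscle cells and lung fibroblasts, read 55.6, 84.9 and 117. Both tumour-bearing lungs were below the control, by 2.10-fold (−1.07) and 1.37-fold (−0.46); no array had the second Itga8 probe set above the floor. Scaling each array by its overall median put the Itga8 difference in the B16 lung at −0.96, short of 2-fold, and that of Cdh11 at 1.46.

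Itga7, the laminin receptor chain of muscle, read 83.4, 75.7 and 82.3 on a probe set of relaxed design and 76.7, 62.7 and 52.8 on the next brightest. The first was close to level over the arrays and the second was higher than control in both tumour-bearing lungs (0.54 and 0.25). Muscle markers, beside it, were lower than control in both, 8 of 8 measured in each, with medians of −1.30 and −1.69, and Ckm and Acta1 were below the floor on all arrays; Tnnc1, Mb and Myl1, above it in the control lung alone, could only be lower. Their summed signal was 991, 848 and 2067 in the B16, LLC and control lung, and no Itga7 probe set followed it. Cdh2, N-cadherin, and Cdh15, the cadherin of muscle precursors, were below the floor on all arrays.

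Of the broadly expressed integrin chains, Itgb1, the beta chain with the most alpha partners, read 1589 in the B16, 1632 in the LLC and 1596 in the control lung, within 1.022-fold of control. Its second probe set read 679, 650 and 736 and stayed within 0.18 (log2) of control. Both Itgb1 probe sets are of relaxed design by their names, as are the first 2 of Itgav, so no Itgb1 value is free of probes that may bind related sequences. Itgav, the alpha chain of RGD-binding receptors that also activate TGF-beta, read 326, 297 and 326, and its second probe set 114, 133 and 157. Itga2, a collagen receptor chain, read 47.2, 36.4 and 24.0, the control lying just above the floor. It was higher in both tumour-bearing lungs, 1.97-fold (0.98) and 1.52-fold (0.60), and its B16 difference passed 2-fold when arrays were scaled by their overall medians (1.08). Itga5, the fibronectin receptor chain, was below the floor on all arrays.

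Itgb5, the beta chain of a vitronectin receptor, depended on the probe set. The brightest, whose name marks a probe set that can bind related sequences, read 118, 127 and 123 in the B16, LLC and control lung, close to level. The other read 77.8, 4.05 and 47.3, which is below the floor in the LLC lung and gives differences of 0.72 and −1.003 from control. Of genes with at least 2 measured probe sets, 5 of 6 had the same sign on these in the B16 lung against control. In the LLC lung against control 1 of 7 did. The 1 was Itga4, whose 2 measured probe sets were above the floor in the LLC lung alone and so could only be higher there.

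**Figure D3:**
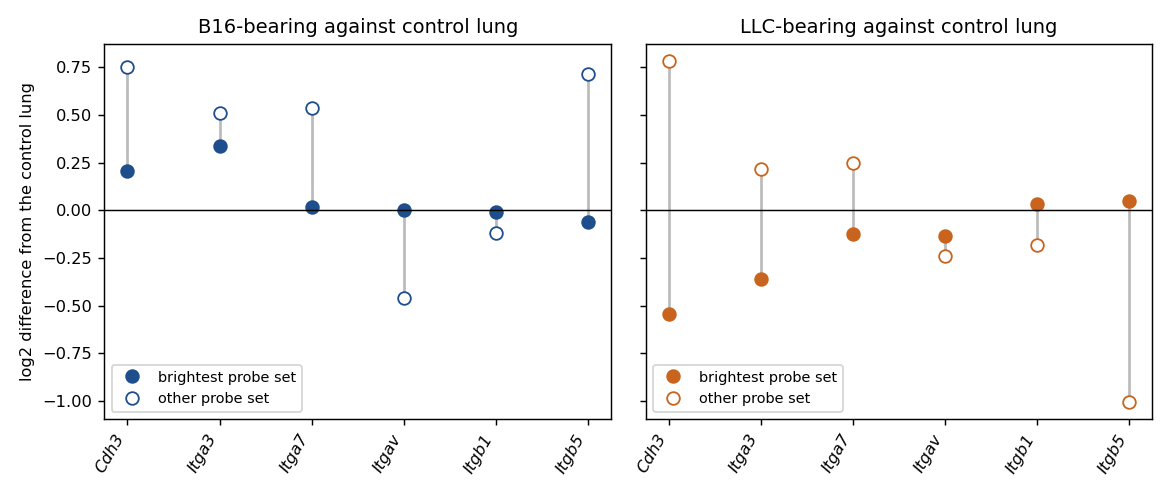
Log2 difference from control of each probe set measured in both comparisons, for the 6 genes with at least 2 such probe sets; filled points are the brightest probe set used throughout, open points the others. In the LLC panel the 2 points of Cdh3, Itga3, Itga7, Itgb1 and Itgb5 lie on opposite sides of 0.

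The remaining cadherins and the protocadherins were mostly below the floor. Cdh4, R-cadherin, known from brain and retina, read 50.9 in the B16 lung, 27.7 in the LLC lung and −7.80 in the control. The tumour-bearing lungs were at least 2.16-fold and at least 1.17-fold higher. Its other probe sets, which are 2 in number, were below the floor on all arrays, and with the mean of all probe sets the B16 difference was 0.37. Cdh6, Cdh8, Cdh9 and Cdh10, classical cadherins known mainly from the nervous system and, for Cdh6, the kidney, were below the floor on every array, as were Cdhr5, a cadherin-related protein of brush borders, and Pcdh7. A signal below the floor does not show that the mRNA was absent.

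The tumour-bearing lungs were compared with each other as well, where the control array enters only through scaling, the floor and the choice of probe set. Of 17 measured adhesion genes 0 were 2-fold higher in the B16 lung, where 3.41% of 5984 genes were, and 1, Itgb2, was 2-fold lower, where 4.95% were. At 1.5-fold, 4 were higher (9.14% of all): Cdh11 (0.89), Cdh4 (0.88), Cdh3 (0.75) and Itga3 (0.70). Lower at 1.5-fold were 2 (12.8% of all), Itgb2 (−1.48) and Itga8 (−0.61). The 4 higher genes belong to the epithelial, mesenchymal and neural classes. With arrays scaled by overall medians, which raises B16 values by 0.11 (log2) relative to control, Cdh11 and Cdh4 reached 2-fold (1.01 and 1.002).

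By class, the median difference of B16 minus LLC lung was −0.29 for 4 leukocyte genes, 0.35 for 4 epithelial genes and −0.18 for Cdh5. Marker lists gave −1.57 for the general leukocyte genes, −0.62 for macrophages and monocytes, −0.52 for neutrophils, 0.28 for lung epithelium and 0.11 for endothelium. Of the leukocyte adhesion genes, Itgb2 lay in the range of the general leukocyte markers, and Itgal, Itgax and Itgb7 were closer to 0 than any of these 6 markers.

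**Figure D4:**
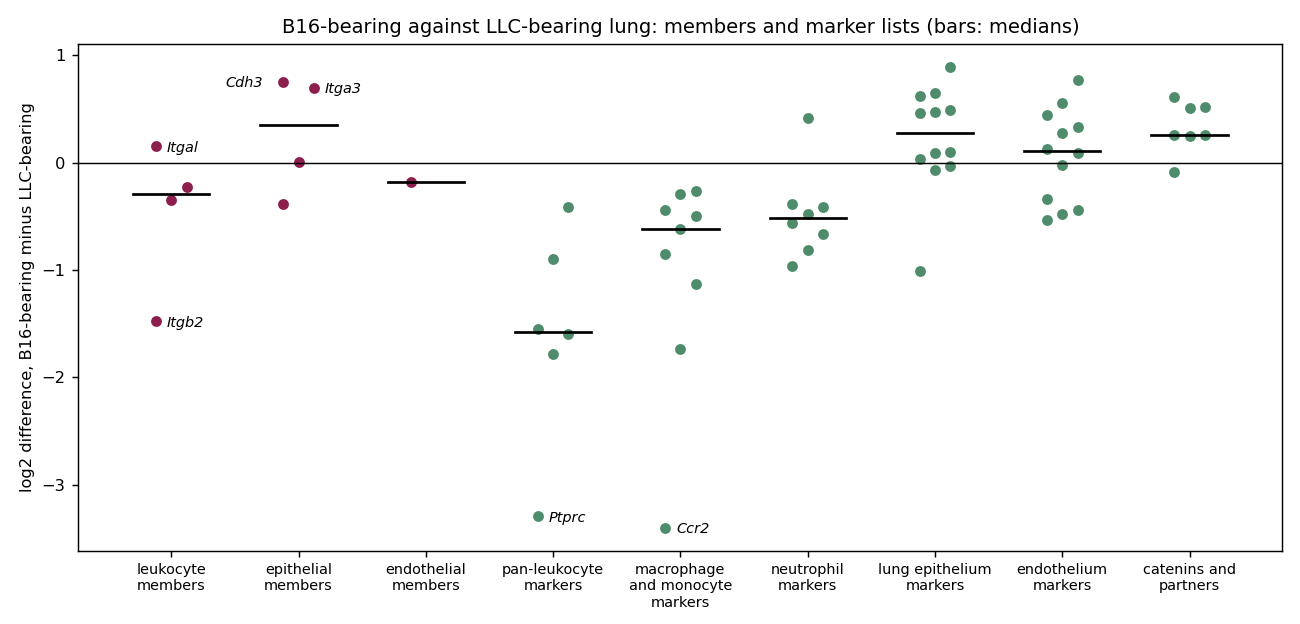
Log2 difference of B16 minus LLC lung for each measured gene of the leukocyte, epithelial and endothelial adhesion classes, of 5 marker lists and of the catenins; bars are medians and points 1 gene each. Itgb2 lies at −1.48 beside general leukocyte markers with a median of −1.57, and Itgal, Itgb7 and Itgax lie at 0.15, −0.23 and −0.35.

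Genes of integrin adaptors inside the cell, listed together with the membrane protein genes Cd47, Cd151 and Cd9, were mostly level. Of 15 measured genes of this list 10 were higher in the B16 than in the control lung and 11 in the LLC lung. The medians were 0.10 and 0.12. At 1.5-fold, 0 were higher and 2 lower in the B16 lung (9.42% and 13.7% of all measured genes were). In the LLC lung 3 were higher and 0 lower (9.32% and 9.07%). At 2-fold, 0 of the 15 were higher (3.23% of all) and 1 was lower (4.73%) in the B16 lung. In the LLC lung 0 were 2-fold different (3.95% of all were higher and 2.98% lower). The gene 2-fold lower in the B16 lung was Apbb1ip, the leukocyte adaptor RIAM, which helps talin to activate integrins. It read 49.95 in the B16, 271 in the LLC and 144 in the control lung. These values, −1.53 and 0.91 from control, gave the same order of arrays as Itgb2. Fermt3, a kindlin gene, and Ptk2b of the same list did not have that order. Fermt3 read 113, 162 and 105 and Ptk2b 132, 174 and 108.5 in the B16, LLC and control lung. Both were above control in the B16 lung (0.10 and 0.29) and more so in the LLC lung (0.62 and 0.68). Zyx, Bcar1 and Src were below the floor on all arrays.

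Catenins and other cadherin partners stayed within 1.5-fold of control in both lungs. Of 7 measured, 6 were higher in the B16 than in the control lung (median 0.14) and 6 were lower in the LLC lung (median −0.21). Between the tumour-bearing lungs 6 were higher in the B16 lung, with a median of 0.26, and 1 by 1.5-fold. That was Ctnna2, alpha-N-catenin, at 102 and 66.9 (0.61). Desmosomal and atypical cadherins were measured for 3 of 6 genes on the array (Dsg2, Dsc1 and Celsr2), and 0 differed by 2-fold.

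Ligand genes included 5 that differed 2-fold from control. Of 17 ligand genes, 14 were measured in the B16 lung against control. Of these, 2 were 2-fold higher (3.23% of all measured genes were) and 0 lower (4.73%). In the LLC lung 17 were measured against control, 3 of them 2-fold higher (3.95% of all) and 0 lower (2.98%). The 3 were Fga, Fgb and Fgg, which were above the floor in the LLC lung alone and so could only be higher. Madcam1, the mucosal addressin bound by the alpha 4 beta 7 integrin, read 130 in the B16 lung (1.97 above control) and 33.0 in the control lung, and stayed under the floor value in the LLC lung. Lama5, the laminin chain bound by alpha 3 and alpha 6 integrins, read 154, 96.5 and 74.2 (1.05 and 0.38). Tgfb1, whose latent form binds alpha v integrins, was below the floor in the B16 lung and read 54.8 and 47.0 in the LLC and control lung. The B16 lung was at least 2.32-fold lower than the LLC lung and at least 1.99-fold lower than control. The count of 0 lower than control thus depends on the floor for this gene. Icam1, the main counter-receptor of beta 2 integrins, read 288, 357 and 462, lower in both tumour-bearing lungs (−0.68 and −0.37).

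Fga, Fgb and Fgg, the fibrinogen chains bound by beta 2 and beta 3 integrins, were above the floor in the LLC lung alone, at 193, 47.6 and 59.1. They are made mainly in hepatocytes, and all 8 measured hepatocyte markers, Fga among them, were 2-fold higher than control on this array. Of these, Alb, Apoa1, Mup3, Fga, Ahsg and Hpx were below the floor in the control lung and so could only be higher. Apoa2 and Serpina1b were above it on both arrays, at 99.3 and 695 in the LLC and 30.1 and 113 in the control lung. The summed signal of 9 listed genes was 3611 in the LLC lung, against 172 in the control and 256 in the B16 lung. The part of hepatocyte genes in the fibrinogen values was not tested.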

How the data were processed

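Total RNA of 3 lung samples, 1 array per group, was measured on Affymetrix mouse arrays; per the labels' protocols RNA came from frozen tissue by TRIzol and was labelled as biotinylated cRNA. The authors deposited linear intensity values with background subtracted (20.2% to 21.0% lie below 0), and the array software is not stated. Without the lowest and highest 2%, each column has a mean of 100.0, so the authors appear to have scaled each array by 1 factor.

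Of 12488 probe sets, 66 controls were left out; 10833 of the other 12422 have 1 symbol in GEO's platform annotation, 396 several and 1193 none. Those with several or none were not named, among them 8 whose several symbols include an adhesion gene. All 34 symbols match a RefSeq gene table (GRCm38.p6, used for names only). Arrays were multiplied by 0.987, 1.01 and 1 (B16, LLC, control), which sets the median log2 ratio to control to 0 over the brighter probe sets. Steps ran in Python 3.11.15 with pandas 2.3.3 and were tested on simulated arrays. Summed signals count negative values as 0.

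The genes, classes and 14 other lists were chosen with earlier results of these data known. Every measured adhesion gene was named; genes of the pathway lists (adaptors, cadherin partners, ligands, desmosomal and atypical cadherins) were named where 2-fold different, and other list genes only as examples, some chosen after their values were seen. Alternatives were other factors, floors, probe set rules and a 1.5-fold threshold. Arrays have no read depth; their number limits the precision.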

Additional observations from a re-analysis of the deposited data

Results flagged for a closer look

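Of the 19 measured adhesion genes, 10 had the B16 and LLC lung on opposite sides of the control lung. The same share over all genes was not counted, so this number is not a result about the adhesion genes. With 1 array per group the difference between the lungs was not tested, both values use the same control array, and several are close to 0. The values are log2 differences from control, B16 lung first. Itgb2 had −1.21 and 0.27, the only 2-fold difference from control among these on the probe set used. Cdh3 had 0.20 and −0.54, and Itga3 0.34 and −0.36; on their second probe sets both lungs were above control for both genes, as for Itga7 (0.54 and 0.25), while for Itgb1 both were below (−0.12 and −0.18). Itga6 had −0.20 and 0.18, and Itgb7 −0.13 and 0.10. Itgal had 0.13 and −0.02, Itga7 0.020 and −0.12, and Cdh5 −0.073 and 0.11. Itgb5 had −0.063 and 0.047, and on its other probe set, which is not of relaxed design, 0.72 and −1.003, past 2-fold in the LLC lung and with both signs turned. Itgb1 had −0.0066 and 0.032.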

How the results depend on the processing

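With no replicates, a log2 value was taken as moved when an alternative shifted it by 1.5-fold or more, and a count when it changed by over 1.5 times. No difference of 2-fold or more turned its sign under any alternative run, but none of these runs could have turned one. The other factors shifted arrays by at most 0.11 (log2), and a raised floor cannot turn a sign. The genes concerned had no other probe set above the floor, and none was read from a probe set of relaxed design. The deposited values without a further factor moved none of the results. That run shifted the B16 and LLC arrays by only 0.019 and −0.017 (log2), too little to move a log2 value by 1.5-fold. Numbers of adhesion genes at least 2-fold different moved most. With arrays scaled by their overall medians, 1 was lower in the B16 lung than in control and 2 were higher than in the LLC lung. With the floor at the 60th percentile or at a signal of 100, the B16 lung had 0 higher and 0 lower than control and 0 lower than the LLC lung; by construction these floors leave fewer genes measured and shrink dim differences, with Itgb2 at −0.45 and Cdh11 at 0.32 from control at the 60th percentile. With the mean of all probe sets of a gene, 1 was higher and 1 lower than control in the B16 lung, and the neural class, which is Cdh4 alone, had 0.37 against control and 0.29 against the LLC lung. Without probe sets of relaxed design, 1 was lower in the LLC lung than in control and 1 was higher in the B16 than in the LLC lung, both Itgb5 (−1.003 and 1.72), and the median of the broadly expressed class in the B16 lung was 0.85. At a 1.5-fold threshold, 1 was higher in the LLC lung than in control, and 4 were higher and 2 lower in the B16 than in the LLC lung. The epithelial median in the LLC lung was −0.36 as reported, 0.062 with the mean of all probe sets and −0.15 at the 60th-percentile floor. Differences near 0 had no settled sign either: scaled by overall medians, the B16 minus control values of Cdh5, Itgb5 and Itgb1 were 0.038, 0.048 and 0.10 in place of −0.073, −0.063 and −0.0066. Signals near the floor limit what Cdh4, Itga2, Itgae and Cdh16 can show.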
